A study of Mus musculus with 8 samples.

Results

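Transcripts of the TGF-beta and BMP pathway were measured in the medial ganglionic eminence (MGE) of WT and Nkx2-1cKO mouse embryos. The genes were chosen by symbol: the BMP and GDF ligands, the SMADs, the activin, BMP and TGF-beta receptors, the 3 TGF-beta ligands, the inhibin and activin subunits, and Nog, Chrd, Fst, Grem1, Bambi and Nodal. A probe on the array was found for 55 of them, among 17178 genes with a probe matched to a symbol, and 47 had a probe bright enough to be tested, among 14449. Nodal and Tgfbr3l had no probe. The 8 genes that were not tested because fewer than 4 arrays had a probe of theirs well above background were Bmp15, Bmp8b, Gdf2, Gdf3, Gdf6, Inhbc, Smad9 and Tgfbr3. The symbol rule also took in Bmp1, a protease that cleaves procollagen and Chordin, and Bmp2k, an intracellular kinase, neither of which is a BMP ligand.

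MGE was microdissected at embryonic day 13.5 (E13.5) from C57BL/6 embryos, and RNA of 4 WT and 4 Nkx2-1cKO samples was amplified, labelled with Cy3 and hybridised to 1-colour Agilent mouse arrays, 1 sample per array. Both groups are labelled as carrying a floxed Nkx2-1 allele over a normal one (Nkx2-1flox/+), without the Cre in WT (Olig2tva-cre-) and with it in the Nkx2-1cKO (Olig2tva-cre+), so the Cre is driven from Olig2 sequences and acts in cells that have expressed Olig2. The study's methods name a homozygous floxed strain for making the mutants and no genotype for the array samples. The label gives the Nkx2-1cKO a normal allele, while their Nkx2-1 signal was 1.24% of WT. The genotype itself was not tested. The labels do not say whether a sample is 1 embryo or a pool, so the p-values measure the spread between these samples.

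The MGE is the ventral forebrain territory that makes most cortical interneurons, and the transcription factor NKX2-1 gives it its identity. Ligands of the TGF-beta superfamily bind pairs of type I and type II serine/threonine kinase receptors. TGF-beta and activin receptors phosphorylate SMAD2 and SMAD3, and BMP receptors phosphorylate SMAD1, SMAD5 and SMAD9. These join SMAD4 and act on genes such as the Id family. Secreted antagonists bind the ligands, and SMAD6 and SMAD7 inhibit the receptors. In the early forebrain, BMPs from the dorsal midline pattern the dorsal telencephalon.

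Levels are given as log2 signal relative to the 75th percentile of the same array, so that 0 is the level of a probe at that percentile. Levels of different probes cannot be set against each other. Nkx2-1 had a log2 signal of 1.87, 1.95, 1.82 and 1.85 on the WT arrays and of -4.26, -4.58, -4.67 and -4.35 on the Nkx2-1cKO arrays, a log2 difference of -6.34 (standard error, SE, 0.11, adjusted p = 4.67e-09, limma). On WT arrays the share of all probes well above background was 76.0% to 79.4%. It was 71.1% to 72.4% on Nkx2-1cKO 1 to 3 and 79.5% on Nkx2-1cKO 4. The arrays lay on 2 slides, each with 2 WT and 2 Nkx2-1cKO samples. Of the MGE markers examined, Lhx6 and Lhx8 also fell. The WT arrays 1 and 4 stood apart. The dim probes of each array were compared with their median over the other arrays. The median deviation on the log2 scale was 1.18 on WT 1, against -0.06 to 0.09 on the other WT arrays. It was -0.41 to -0.12 on Nkx2-1cKO 1 to 3 and 0.22 on Nkx2-1cKO 4. On WT 4, the summed signal of 10 markers of mesenchyme and meninges was 6.99 times the 75th percentile, against 1.87 to 2.23 on the other WT arrays and 1.68 to 2.37 on the Nkx2-1cKO arrays. In whole dissected tissue, fewer cells of a type and less RNA per cell cannot be told apart.

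Of the 47 tested genes chosen by symbol, 1 passed the test. Tgfb3 was lower in the Nkx2-1cKO, and no gene of the 47 was higher (limma, adjusted p under 0.05 over 31283 probes). Among all tested genes, 0.851% were lower and 0.491% were higher by this rule. At an unadjusted p under 0.05, 7 of the 47 were lower and 4 higher, or 23.4% in both directions against 9.48% of all tested genes. On 4 genes, Tgfb3, Bmp7, Grem1 and Bmp10, every Nkx2-1cKO array was below every WT array, and on Fst and Nog every one was above. Over all tested genes the groups did not overlap in 4.02% downward and 2.82% upward. The median log2 difference was -0.13 over the 47 genes and -0.0017 over all tested genes, and 16 of the 47 (34.0%) were above 0 against 49.7% of all. The difference was within 0.25 of 0 for 26 genes (55.3%), against 74.4% of all. The size of the median shift depended on the setting. The median of these genes lay below that of all tested probes in every setting but normexp, where it was 0.28 against 0.20. Without WT 1 it was -0.05 against -0.0033. With the filter on mean signal it was -0.0036 over 31 genes, against 0.02 over all tested probes.

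**Figure D1:**
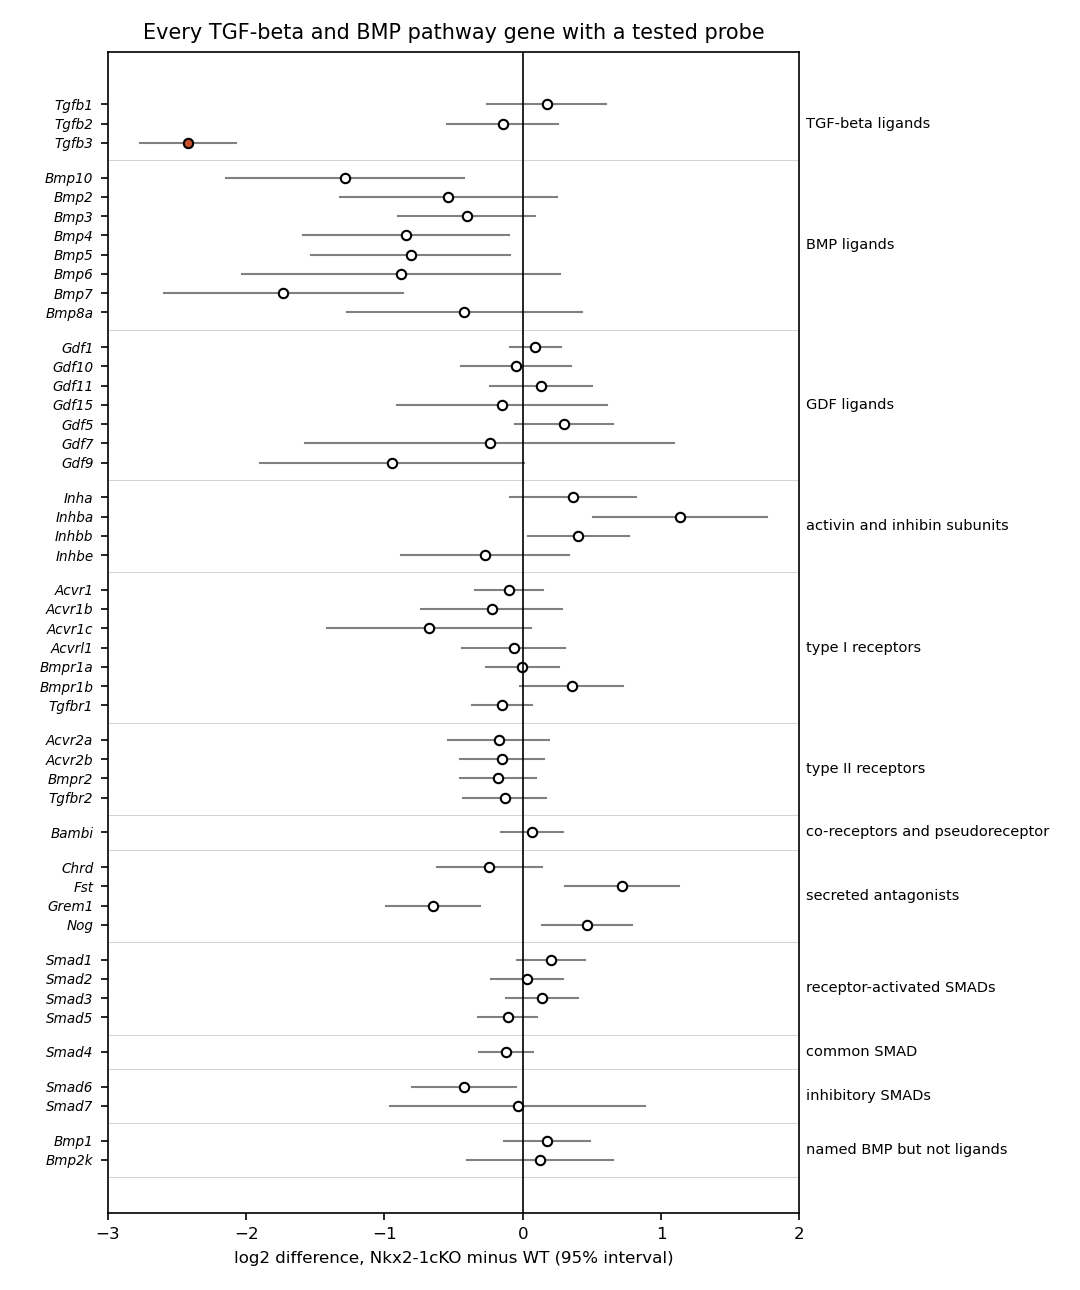
The log2 difference (Nkx2-1cKO minus WT, x axis) of each of the 47 tested genes, by role, with its 95% interval from the limma fit. The filled point, Tgfb3 at -2.42, is the gene that passed the test. Among the receptors and SMADs, Acvr1c (-0.68), Smad6 (-0.42) and Bmpr1b (0.35) lie farthest from 0.

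Tgfb3 encodes one of the 3 TGF-beta ligands and was measured by 1 probe (A_51_P124748). Its log2 signal was 0.90, 1.57, 1.07 and 1.36 on WT arrays 1 to 4 and -0.99, -1.35, -1.09 and -1.34 on Nkx2-1cKO arrays 1 to 4. The WT arrays were all above 0 and the Nkx2-1cKO arrays all below it. The means were 1.23 ± 0.30 and -1.19 ± 0.18 (SD, n = 4 each). In log2 units Tgfb3 fell by 2.42 (SE 0.16, limma adjusted p = 5.04e-05; exact two-sided permutation p = 0.0286, the smallest that 4 arrays against 4 allow), and the mutant level was 18.7% of WT. Within slides 1 and 2 it was -2.34 and -2.50. With slide as a block the adjusted p was 3.42e-06, and Tgfb3 was also 0.39 higher on slide 2 than on slide 1 (adjusted p = 0.0161). It passed the test in all 20 settings computed, with differences from -2.53 to -2.22.

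The other TGF-beta ligands did not pass the test. Tgfb1 had -3.02, -3.14, -3.43 and -2.64 in WT and -2.99, -3.19, -2.58 and -2.79 in the Nkx2-1cKO, a difference of 0.17 (95% interval -0.26 to 0.60, adjusted p = 0.765, limma). Tgfb2 had -1.20, -1.75, -1.28 and -1.56 in WT and -2.04, -1.62, -1.38 and -1.34 in the Nkx2-1cKO, a difference of -0.15 (95% interval -0.55 to 0.26, adjusted p = 0.789, limma). The groups overlapped on both genes, and neither interval reached the Tgfb3 difference.

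**Figure D2:**
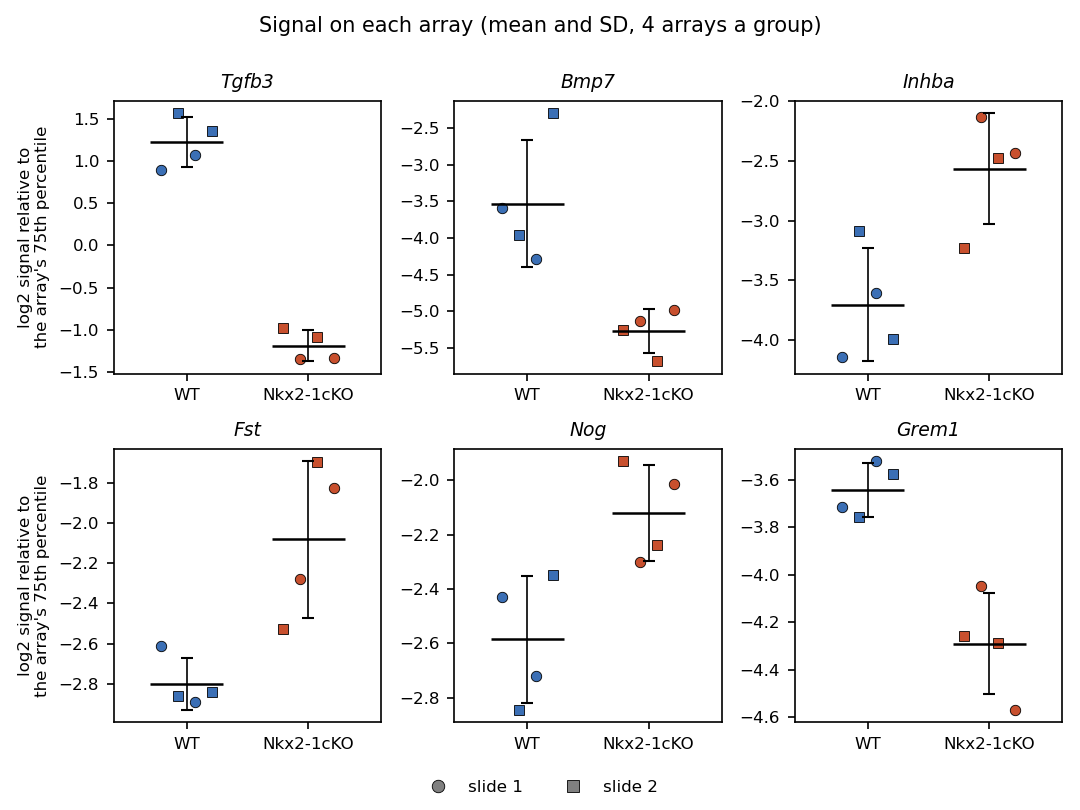
Log2 signal relative to the array's 75th percentile (y axis) of Tgfb3, Bmp7, Inhba, Fst, Nog and Grem1 on each array. Points are arrays (circles slide 1, squares slide 2), and bars are the mean and SD of 4 arrays. Groups are apart on all but Inhba, where WT 2 lies above Nkx2-1cKO 1.

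All 8 tested BMP ligands had a difference below 0, with a median of -0.83, and none passed the test (4 at an unadjusted p under 0.05, limma). This direction depended on the background correction. After normexp 7 of the 8 were above 0, with a median of 0.49, and after quantile normalization 1 was above 0, with a median of -0.38. The levels were dim, with group means between -6.59 and -3.53. For 5 of the 8 the highest array was WT 1 and for the other 3 it was WT 4, the arrays described above. The dim signal was also lowest on Nkx2-1cKO 1 to 3. The part of these shifts in dim signal and of the mesenchymal markers of WT 4 in these differences was not tested. Without WT 1 all 8 stayed below 0 with a median of -0.61, and without WT 4 with a median of -0.62. No setting left out both arrays, so these medians cannot show the direction without the pair. Of the markers of the dorsal midline, cortical hem and choroid plexus, where BMPs are known to be made, 6 of 10 were tested and none passed (none at an unadjusted p under 0.05, limma). Their summed signal was 0.40 to 0.72 in WT and 0.32 to 0.81 in the Nkx2-1cKO over the 6. The sum includes Otx2, which the study names beside Nkx2-1 in starting MGE fate, so it does not measure dorsal tissue alone. The other 4, Ttr, Lmx1a, Wnt2b and Wnt3a, were well above background on fewer than 4 arrays. Ttr, the defining marker of choroid plexus, was well above background on 2 WT arrays, with -2.60, -7.44, -7.22 and -6.36 in WT and -6.73, -7.57, -8.01 and -7.12 in the Nkx2-1cKO. It was thus high on WT 1, the array on which 5 of the BMP ligands were highest, and its part in their differences was not tested.

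Bmp7, a BMP of epithelia and of the meninges, showed the largest difference among the BMP ligands. On its brighter probe (A_52_P278354) the log2 signal was -3.59, -3.96, -4.28 and -2.30 in WT and -5.25, -5.14, -5.68 and -4.99 in the Nkx2-1cKO. The groups did not overlap, and WT 4 stood well above the other WT arrays. The difference was -1.73 (SE 0.39, adjusted p = 0.0921, limma), which did not pass the test. The other probe (A_51_P492366) had -3.89, -4.39, -4.43 and -2.40 in WT and -6.02, -5.83, -6.22 and -5.51 in the Nkx2-1cKO. Its difference was -2.12 (SE 0.42, adjusted p = 0.0530, limma). Without WT 4 the differences were -1.32 (adjusted p = 0.0735) and -1.66 (adjusted p = 0.0350), so that the dimmer probe then passed. After normexp they were -0.37 and -0.38 (adjusted p = 0.849 for both).

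Bmp4, the ligand of the dorsal midline and of the surface ectoderm, had -4.05, -5.15, -5.20 and -4.02 in WT and -5.67, -5.52, -5.64 and -4.98 in the Nkx2-1cKO. WT 1 and WT 4 were above the other WT arrays, and Nkx2-1cKO 4 lay above WT 2 and WT 3. The difference was -0.85 (SE 0.33, adjusted p = 0.512, limma). Bmp10, known as a cardiac ligand, had -3.78, -5.33, -5.12 and -4.94 in WT and -5.61, -6.68, -6.26 and -5.76 in the Nkx2-1cKO. Its groups did not overlap, the difference was -1.29 (SE 0.38, adjusted p = 0.286, limma), and it was 0.27 after normexp. The differences of Bmp2, Bmp3, Bmp5, Bmp6 and Bmp8a ranged from -0.88 to -0.41 (adjusted p 0.517 or higher, limma).

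**Figure D3:**
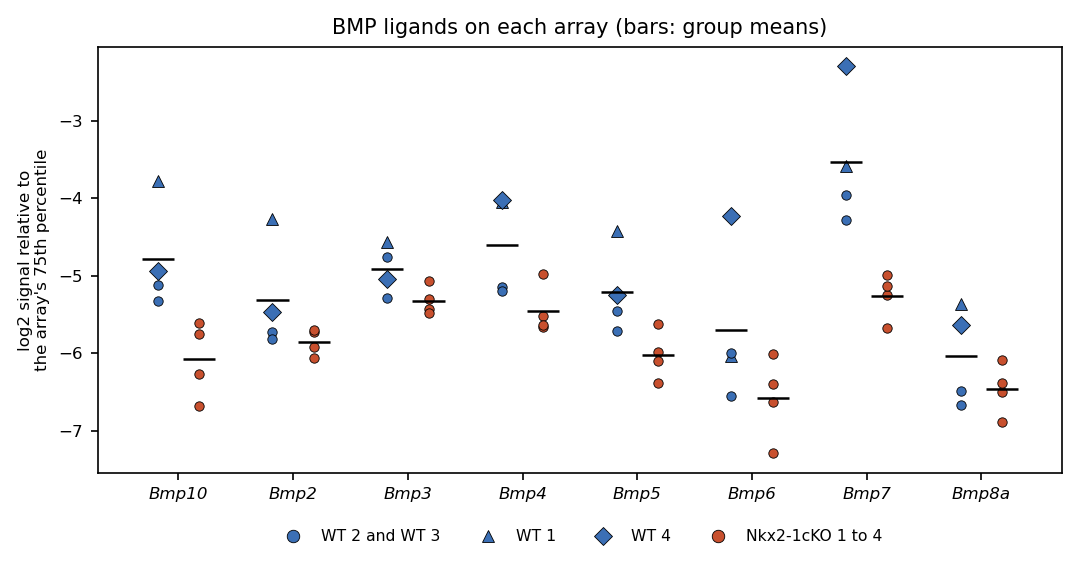
Log2 signal relative to the array's 75th percentile (y axis) of the 8 tested BMP ligands on each array, WT in blue and Nkx2-1cKO in red, with group means as bars. Triangles mark WT 1 and diamonds WT 4, which hold the highest value of every one of the 8. Levels are to be compared within a gene only.

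The 7 tested GDF ligands had differences between -0.94 and 0.30, and none passed (none at an unadjusted p under 0.05, limma). Gdf1, whose transcript in brain is shared with the neighbouring Cers1 so that the 2 cannot be told apart here, had means of 3.23 ± 0.04 and 3.32 ± 0.14 (SD, n = 4 each). Gdf11, Gdf10, Gdf15 and Gdf5 differed by 0.13, -0.05, -0.15 and 0.30. Gdf9 and Gdf7 had the widest spread within a group, with SDs up to 0.94 and 1.10. For Gdf9 this came from Nkx2-1cKO 4, at -4.24 against -2.46 to -2.31 on the other 3.

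Among the activin and inhibin subunits, Inhba, which forms activin A, had the largest upward difference of the 47 genes. It was picked for its values on every array after they were seen. Its log2 signal was -4.14, -3.08, -3.60 and -3.99 in WT and -3.23, -2.13, -2.47 and -2.44 in the Nkx2-1cKO. All but 1 of the WT arrays were below every Nkx2-1cKO array, the exception being WT 2. The difference was 1.14 (SE 0.28, adjusted p = 0.141, limma; exact two-sided permutation p = 0.0571), and within slides 1 and 2 it was 1.59 and 0.69. Over the 20 settings computed it lay between 0.94 and 1.37, with an adjusted p between 0.0721 and 0.384. Inhbb, of activin B, differed by 0.40 on its brighter probe (adjusted p = 0.531, limma) and by -0.52 on the other (adjusted p = 0.657), so its probes disagreed. Inha, the inhibin alpha subunit, differed by 0.36 and -0.05 on its probes, and Inhbe by -0.28.

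None of the 11 type I and type II receptors passed the test (none at an unadjusted p under 0.05, limma). The 7 type I receptors had a median of -0.10 with 1 above 0, but after normexp it was 0.43 with 4 above 0. On their brightest probes all 4 type II receptors lay between -0.18 and -0.13, while the other tested probe of Acvr2a was at 0.15. Tgfbr2, the TGF-beta receptor, had -0.49, -0.13, -0.22 and 0.08 in WT and -0.12, -0.41, -0.26 and -0.50 in the Nkx2-1cKO, a difference of -0.13 (95% interval -0.43 to 0.17). Bmpr2, which binds BMPs, had -0.49, -0.81, -0.94 and -0.82 in WT and -0.94, -1.08, -0.73 and -1.03 in the Nkx2-1cKO, a difference of -0.18 (95% interval -0.45 to 0.10). On both genes the groups overlapped.

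Of the type I receptors, Tgfbr1 had 2.73, 2.46, 2.37 and 2.54 in WT and 2.52, 2.32, 2.30 and 2.35 in the Nkx2-1cKO, a difference of -0.15 (95% interval -0.37 to 0.06). Bmpr1a had 1.14, 0.81, 0.92 and 0.67 in WT and 1.09, 0.85, 0.82 and 0.76 in the Nkx2-1cKO, a difference of -0.0036 (95% interval -0.27 to 0.26). The other, dimmer probe of Bmpr1a differed by -0.25 (adjusted p = 0.732, limma). Bmpr1b, its relative with a more restricted expression, had -2.71, -3.26, -2.90 and -3.18 in WT and -2.42, -2.58, -2.98 and -2.64 in the Nkx2-1cKO. All but Nkx2-1cKO 3 of its mutant arrays were above all WT arrays, and the difference was 0.35 (SE 0.17, adjusted p = 0.599, limma). Bambi, a receptor without a kinase domain that dampens signalling, differed by 0.07 (95% interval -0.16 to 0.29).

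The secreted antagonists were divided in direction. Nog, which blocks BMPs, had -2.43, -2.84, -2.72 and -2.35 in WT and -1.93, -2.30, -2.24 and -2.01 in the Nkx2-1cKO. The groups did not overlap, though Nkx2-1cKO 2 lay close to WT 4. The difference was 0.46 (SE 0.15, adjusted p = 0.321, limma). Fst, follistatin, which binds activins, had -2.61, -2.86, -2.89 and -2.84 in WT and -2.53, -2.28, -1.70 and -1.83 in the Nkx2-1cKO. The groups did not overlap, the Nkx2-1cKO arrays were spread more widely (SD 0.39 against 0.13, n = 4 each), and the difference was 0.72 (SE 0.18, adjusted p = 0.167, limma).

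Grem1, the BMP antagonist gremlin 1, lay the other way. It had -3.72, -3.76, -3.52 and -3.58 in WT and -4.26, -4.05, -4.29 and -4.57 in the Nkx2-1cKO, without overlap, and within slides 1 and 2 the differences were -0.69 and -0.61. The difference was -0.65 (SE 0.15, adjusted p = 0.117, limma), and it was 0.17 after normexp. Chrd, chordin, had -2.93, -3.52, -3.24 and -3.47 in WT and -3.61, -3.27, -3.76 and -3.49 in the Nkx2-1cKO, overlapping, with a difference of -0.24 (95% interval -0.62 to 0.14). None of the 4 antagonists passed the test in any of the settings in which it was tested. At an unadjusted p under 0.05, Nog, Fst and Grem1 were 3 of the 11 genes counted above (limma).

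None of the SMADs that carry the signal passed the test (none at an unadjusted p under 0.05, limma), and their differences lay between -0.12 and 0.20. Smad4, the common partner, had 3.62, 3.37, 3.33 and 3.29 in WT and 3.37, 3.23, 3.29 and 3.25 in the Nkx2-1cKO, a difference of -0.12 (95% interval -0.31 to 0.08). Smad3, of the TGF-beta and activin branch, had -0.42, -0.58, -0.75 and -0.33 in WT and -0.37, -0.55, -0.38 and -0.22 in the Nkx2-1cKO, a difference of 0.14 (95% interval -0.12 to 0.40). The groups overlapped on both. Smad2 differed by 0.03, and Smad1 and Smad5 of the BMP branch by 0.20 and -0.11 on their brightest probes, against -0.02 on the other probe of Smad1 and 0.0026 and 0.05 on those of Smad5. Over the 11 receptors and these 5 SMADs, all 16 intervals held 0 with the scaling used throughout, and for 15 the interval lay within 1 of 0 on the log2 scale. The exception was the dim Acvr1c, with -1.41 to 0.06.

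The inhibitory SMADs are themselves induced by the pathway. Smad6, which acts mainly on BMP signalling, had -2.89, -3.43, -3.37 and -2.90 in WT and -3.50, -3.79, -3.40 and -3.58 in the Nkx2-1cKO. WT 1 and WT 4 were the highest, Nkx2-1cKO 3 lay above WT 2, and the difference was -0.42 (SE 0.17, adjusted p = 0.518, limma), turning to 0.14 after normexp. Smad7, which acts on both branches, had -1.89, -3.20, -1.91 and -3.16 in WT and -3.02, -1.90, -3.33 and -2.06 in the Nkx2-1cKO. Its arrays fell into high and low sets that cut across the groups, with a difference between groups of -0.04 (95% interval -0.96 to 0.89).

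The sets were the slides. On slide 1, which held WT 1, WT 3, Nkx2-1cKO 2 and Nkx2-1cKO 4, Smad7 lay between -2.06 and -1.89, and on slide 2 between -3.33 and -3.02. Slide 2 was 1.24 lower than slide 1 on the log2 scale (adjusted p = 9.3e-05, limma). Gdf7, a BMP-class ligand of the roof plate, was 1.77 lower on slide 2 (adjusted p = 0.000254, limma). It had -2.51, -4.45, -2.94 and -4.74 in WT and -5.01, -3.09, -4.46 and -3.03 in the Nkx2-1cKO. Within the slides the differences between groups were -0.34 and -0.14 for Gdf7 and -0.08 and 0.0026 for Smad7. Of the 47 genes, Gdf7, Smad7 and Tgfb3 differed between slides (6.38%), against 15.9% of all tested genes. Gdf7 was given on every array after its values were seen. What the slides stand for beyond the slide itself cannot be told apart, since the scans were divided in the same way.

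**Figure D4:**
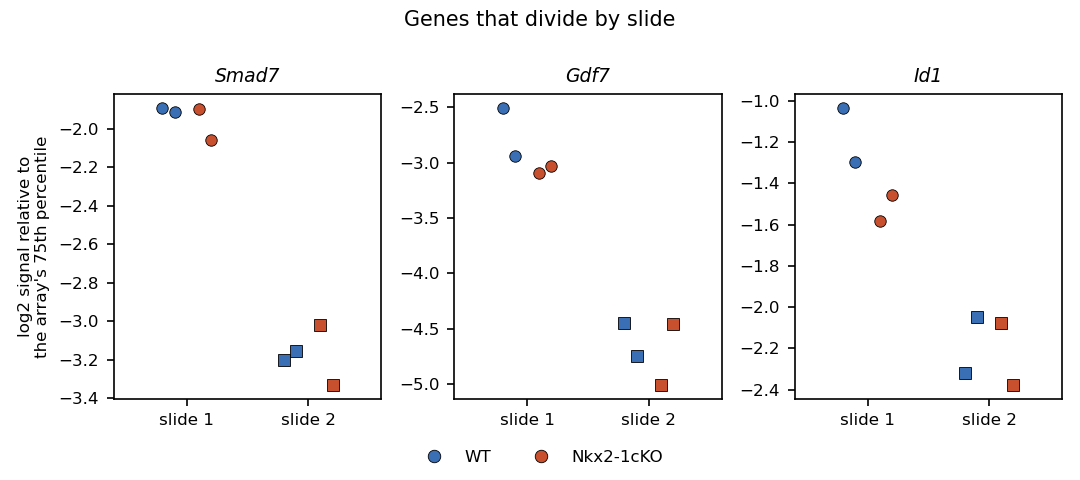
Log2 signal relative to the array's 75th percentile (y axis) of Smad7, Gdf7 and Id1 on each array, by slide, with WT in blue and Nkx2-1cKO in red. On all 3 genes every array of slide 1 is above every array of slide 2, in both groups.

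The wider pathway was followed through other lists. Of 18 genes known to respond to BMP or TGF-beta, 17 were tested, and 1 passed, upward, with a median difference of -0.04 over the list. That gene was Id4, an inhibitor of basic helix-loop-helix factors that is abundant in neural progenitors. Its brighter probe had 3.55, 3.33, 3.22 and 3.60 in WT and 4.22, 3.92, 4.01 and 3.94 in the Nkx2-1cKO, without overlap. In log2 units Id4 rose by 0.60, or 1.51-fold (SE 0.11, limma adjusted p = 0.0301), and on the second probe by 0.57 (SE 0.09, limma adjusted p = 0.0118). The brighter probe was past the threshold in 10 of the 20 settings, and when 1 array was left out in turn in 2 of 8, with an adjusted p from 0.0428 to 0.107. After normexp it was 0.48 (adjusted p = 0.114).

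The other Id genes, often read as BMP targets, did not pass (none at an unadjusted p under 0.05, limma). Id2 and Id3 differed by -0.0034 and -0.17. Id1 had -1.04, -2.32, -1.30 and -2.05 in WT and -2.08, -1.58, -2.38 and -1.46 in the Nkx2-1cKO, and it divided by slide as Smad7 did, 0.86 lower on slide 2 (adjusted p = 0.00259, limma), with a difference between groups of -0.20 (adjusted p = 0.830). The dorsal BMP target Msx1 differed by -0.58 (adjusted p = 0.641), and the TGF-beta targets Tgfbi and Ccn2 by 0.40 and -0.39 (adjusted p 0.583 or higher).

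Of 33 other extracellular regulators, 27 were tested. At an unadjusted p under 0.05, 5 of these were lower and 3 higher (limma), against 9.48% of all tested genes in both directions. The median difference over the list was -0.14, and after adjustment 1 gene passed, upward. That gene was Bmper, a secreted BMP-binding protein. Its brighter probe had 1.98, 2.08, 1.81 and 2.04 in WT and 2.71, 2.39, 2.64 and 2.34 in the Nkx2-1cKO, without overlap. In log2 units Bmper rose by 0.54, or 1.46-fold (SE 0.11, limma adjusted p = 0.0475). The second probe differed by 0.46 (SE 0.09, adjusted p = 0.0572), which did not pass. The call lay at the threshold and was kept in 7 of the 20 settings. Without a slide block it was lost whichever array was left out, with an adjusted p from 0.0578 to 0.159. With slide as a block the adjusted p was 0.00379, and it was 0.00382 and 0.0211 when WT 1 or WT 4 was also left out. Thbs1, which can activate latent TGF-beta, and Ltbp1, which tethers it to the matrix, had all Nkx2-1cKO arrays below all WT arrays on the brightest probe but not on the others, and did not pass, with differences of -0.62 (adjusted p = 0.179) and -0.64 (adjusted p = 0.371). The widest difference on this list, -2.45 for Dcn, went with a WT spread from -3.79 to 0.56, the highest on WT 4 (adjusted p = 0.527). Of 25 intracellular regulators 24 were tested and none passed (1 at an unadjusted p under 0.05, Hspb8, limma), with a median of -0.09.

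**Figure D5:**
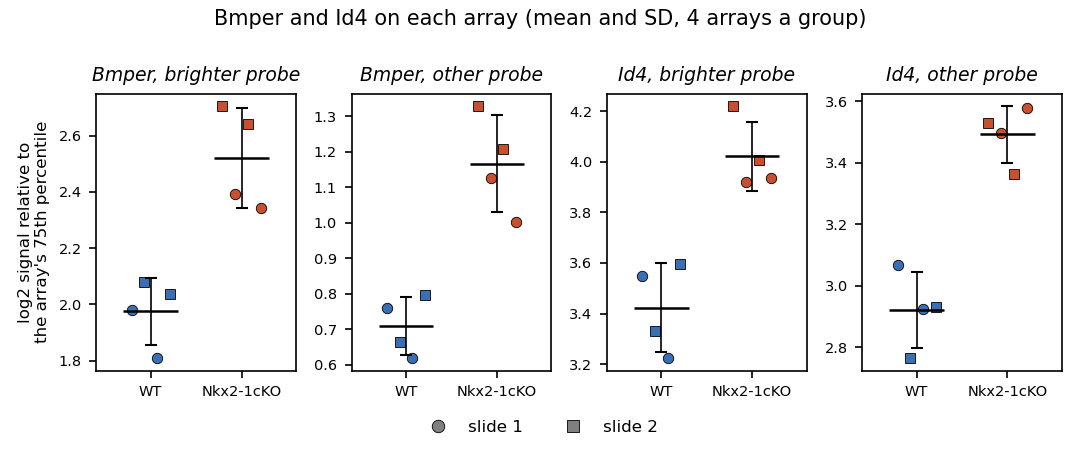
Log2 signal relative to the array's 75th percentile (y axis) of both probes of Bmper and of Id4 on each array (circles slide 1, squares slide 2), with the mean and SD of 4 arrays. On all 4 probes the WT arrays all lie below the Nkx2-1cKO arrays.

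The 250 bases before the start sites of Id4 and Bmper are shown because these are the pathway genes beyond Tgfb3 that passed the test. RefSeq windows on GRCm38.p6 were found for 38 of the 55 genes chosen by symbol, but not for Tgfb3. Both genes lie on the plus strand, Id4 at chr13:48260866-48261115 and Bmper at chr9:23222826-23223075. Matches to any of the 4 motifs searched are in capitals.
Id4: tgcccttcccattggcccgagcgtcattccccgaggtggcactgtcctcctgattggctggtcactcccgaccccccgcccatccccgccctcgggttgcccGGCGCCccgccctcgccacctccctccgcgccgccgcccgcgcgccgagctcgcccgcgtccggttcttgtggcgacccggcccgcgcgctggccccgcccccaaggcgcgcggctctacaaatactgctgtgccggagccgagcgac
Bmper: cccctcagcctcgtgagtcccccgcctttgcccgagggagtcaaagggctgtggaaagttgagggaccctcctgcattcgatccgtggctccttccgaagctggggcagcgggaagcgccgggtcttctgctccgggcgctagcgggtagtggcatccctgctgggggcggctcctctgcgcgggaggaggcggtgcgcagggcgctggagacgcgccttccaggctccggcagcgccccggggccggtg
The motifs, searched on both strands, were the SMAD box core CAGAC, the GC-rich SMAD element GGCGCC, the homeodomain core TAATTA and the NKX2 core CAAGTG. Id4 held 1 GGCGCC, a palindrome that 9.59% of 32851 such windows hold, and neither window held any of the other 3. CAGAC was found in 42.2% of all windows, TAATTA in 4.84% and CAAGTG in 11.6%. No match says only that these letters are not in the 250 bases shown.

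Markers of other cells were compared because the ligands and antagonists are also made outside the MGE. None of the 10 endothelial and pericyte, 7 erythroid, 7 microglial and 8 pallial markers passed the test (1 pallial marker at an unadjusted p under 0.05, limma). Of the 10 mesenchymal and meningeal markers 1 was above 0 on its brightest probe, and the median difference was -0.47. Only Pdgfra passed, with -1.65, -1.85, -1.97 and -1.68 in WT and -3.53, -3.65, -3.54 and -3.47 in the Nkx2-1cKO, a fall of 1.76 on the log2 scale (adjusted p = 5.04e-05, limma). It is also a gene of oligodendrocyte precursors. Col1a2, Col3a1 and Lum differed by -0.47, -0.85 and -1.95 (adjusted p 0.659 or higher), and all 3 were highest on WT 4. Col1a1, also highest on WT 4, lay the other way, with 0.70 and 0.19 on its tested probes (adjusted p 0.772 or higher). These collagens and Lum were picked after their values were seen. Of 5 tested markers of the septum and hypothalamus, which border the MGE, 1 passed, upward. This was Six3, with -1.90, -1.76, -1.99 and -1.60 in WT and -0.87, -0.93, -0.62 and -0.89 in the Nkx2-1cKO, a rise of 0.99 (adjusted p = 0.00336, limma). The other 4, Zic1, Zic2, Sim1 and Foxd1, differed by -0.56, -0.73, -0.30 and -0.18 (adjusted p 0.496 or higher), and the median of the 5 was -0.30. The part of these cells in the differences of the pathway genes was not tested.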

How the data were processed

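RNA of 4 WT and 4 Nkx2-1cKO MGE samples at E13.5 was measured on 1-colour arrays. The authors deposited the output of Agilent Feature Extraction, version 10.7.3.1 by the file headers and 10.1 by the submitters' processing notes, with spot intensity background-subtracted within an array and not scaled between arrays. Here control and outlier spots were left out, the array's own 75th percentile was subtracted from the log2 intensity, and replicate spots were averaged. Probes were named by accession through a RefSeq gene table of GRCm38.p6 (24844 of 41174 matched), and no coordinates were taken from it. Of all probes, 31283 were well above background on at least 4 of 8 arrays and were tested.

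Groups followed the sample titles. lmFit and eBayes with a variance trend (limma 3.58.1, R 4.3.3) were fitted to all 8 arrays, with Benjamini-Hochberg adjustment over all tested probes and a threshold of 0.05. The procedure was run on simulated data with independent noise. These held no slide effect and no shift of dim signal on single arrays, so they cannot show how such traits act on the calls. The tested probe with the highest mean signal represents a gene. Single values were also compared by exact permutation tests. The genes and lists were chosen with earlier results of these data known, and the lists come from general knowledge of the pathway. Values on every array are given for the pathway genes of the symbol rule that passed or whose groups do not overlap, for 16 named ligands, antagonists, receptors and SMADs, for other pathway genes that passed, and for Nkx2-1. Values on every array for Inhba, Gdf7, Id1, Pdgfra, Six3 and Ttr were added after they were seen. Other genes are given by their difference or range.

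The fit was repeated without the variance trend, with dim probes kept, with probes filtered by mean signal, with slide or replicate number as a block, with the probes of a gene averaged, with each array left out, and after quantile normalization, median centring or normexp correction of the median signal (offset 50). Slide as a block without WT 1 or WT 4 was added after seeing the data. Arrays of the same replicate number deviated from their group means with correlations of -0.48 to -0.19, and were not taken as pairs. Such arrays always lay on different slides, so slide differences enter these correlations, which cannot decide whether samples were paired. The number of arrays limits the precision. The study's chromatin, reporter and deletion experiments were not analysed here, and single values of some genes on the lists are not reported here.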

Additional observations from a re-analysis of the deposited data

Results flagged for a closer look

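Gdf9 on Nkx2-1cKO 4 had a log2 signal of -4.24, against -2.46 to -2.31 on the other Nkx2-1cKO arrays, a gap that took up 0.922 of the range of the group. Smad1 on WT 1 was 3.06, against 2.85 to 2.88 on the other WT arrays, with a gap of 0.840 of the range. Both exceed Dixon's 95% critical value for 4 samples. Of 94 groups of 4 arrays examined, chance would mark about 4.7. Without Nkx2-1cKO 4 the log2 difference of Gdf9 was -0.48 in place of -0.94 (adjusted p = 0.730 and 0.584, limma).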

How the results depend on the processing

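In each of the 19 alternatives 1 of the tested genes chosen by symbol was lower, Tgfb3, and 0 were higher (limma, adjusted p under 0.05). The filter on the mean signal tested 31 of the 47 genes, leaving out Bmp4, Bmp7, Bmp10, Gdf7 and Grem1 among others. Of the scalings, normexp moved the median difference of all tested probes from -0.04 to 0.20 and centring moved it to 0.09. Some differences turned from below to above 0. After normexp they were 0.27 for Bmp10, 0.30 for Bmp4, 0.28 for Chrd, 0.17 for Grem1, 0.14 for Smad6, 0.37 for Smad7, 0.0698 for Tgfb2 and 0.53 for Gdf7, after centring 0.13 for Bmpr1a, 0.0107 for Smad4 and 0.0927 for Smad7, and after quantile normalization 0.0235 for Smad7. The cause was not tested. Leaving out each array in turn gave -0.0757 to 0.0820 for Bmpr1a, -0.26 to 0.21 for Smad7, -0.25 to 0.0019 for Tgfb2 and -0.60 to 0.15 for Gdf7, and slide as a block without WT 1 gave 0.0849 for Bmpr1a. None of these passed the test in any setting. With the replicate block the adjusted p of Tgfb3 was 0.00968, and those of Id4 and Bmper were 0.153 and 0.363, no longer past the threshold. The titles give the replicate numbers and no pairing, and arrays that share a number lay on different slides.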
